A study of Homo sapiens with 10 samples.

Results

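The genes described here are 9 human genes for RNA decay enzymes, RNA-binding antiviral factors and helicases: ISG20, PNPT1, ZC3HAV1, C19orf66 (also named SHFL), XRN1, ZNFX1, HELZ2, DDX60 and DDX60L. They were taken by gene name, and all 9 are listed in every one of the 10 libraries, of 20501 named genes in the tables of the first experiment and 22609 genes in those of the second. HELZ2 stands in the first set of tables under its older symbol PRIC285. The libraries came from KYSE30, KYSE180 and KYSE450, established cell lines of human esophageal squamous cell carcinoma, and RNA was measured by sequencing. In the first experiment each line gave 1 library of untreated control cells, which received saline buffer, and 1 library of cells given interferon-beta (IFN-β), a type I interferon, for 72 h at a dose of 1000 IU/ml. The second experiment used KYSE30 and KYSE180, each with 1 library of vector control cells and 1 library of cells given lentivirus against IRF1-AS, the non-coding transcript that runs antisense to IRF1. The vector control cells carry the lentiviral vector too, and neither the hairpin sequence nor the number of clones is given in the sources used here. A group holds 1 library per line, so the lines are the replicates, and no spread between cultures of 1 line was measured. The test also draws the spread of each gene toward that of all genes tested. Its p-values and SE are therefore not the observed spread between lines of that gene alone.

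Type I interferon signalling acts on the interferon-stimulated response element, a repeat of GAAA in the promoters of antiviral genes. Among the products of such genes are enzymes that destroy viral RNA and proteins that bind it or unwind it. XRN1 differs from the others in being the general cytoplasmic exonuclease that degrades decapped messenger RNA in all cells. ISG20 is an exonuclease that works from the 3′ end, and PNPT1 is the polynucleotide phosphorylase of mitochondria. ZC3HAV1, known as ZAP, binds CpG-rich RNA and brings decay enzymes to it, and C19orf66 restricts RNA viruses and blocks programmed ribosomal frameshifting. ZNFX1, HELZ2, DDX60 and DDX60L carry helicase domains.

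All values are FPKM as the authors deposited them, a level per length of transcript, so levels of different genes can be set side by side within a library. Read counts are not used here and the depth is unknown. The number of genes at 1 FPKM or more was between 10992 and 11886 in the first experiment and between 11715 and 12348 in the second. As deposited, the median log2 ratio of all genes tested was 0.41 in KYSE450 after IFN-β, against −0.01 in KYSE30 and −0.02 in KYSE180, so log2 fold changes below come from values scaled by the median of ratios, and fits on the deposited values stand beside them. Among 10 squamous epithelial markers the summed level ran from 326 to 8453 FPKM in the untreated libraries, with KYSE30 lowest, where the basal keratin gene KRT5 stood at 2.91 FPKM against 2346 in KYSE180 and 3355 in KYSE450. KRT14, KRT6A, KRT17, TP63, DSG3 and PKP1 were also lowest in untreated KYSE30. SFN and EPCAM were lowest there too, by far less than KRT5. They had 102 and 114 FPKM in untreated KYSE30, 281 and 142 in KYSE180 and 168 and 207 in KYSE450. CDH1 was not lowest in KYSE30, with 54.1 FPKM there, 76.2 in KYSE180 and 45.2 in KYSE450. KRT5 was lower after IFN-β in every line (limma, adjusted p = 0.0803 on scaled values and 0.00755 as deposited). Of 8 leukocyte, 6 fibroblast and 5 endothelial markers, 7, 5 and 4 stayed under 1 FPKM in every library of the first experiment, and the pan-leukocyte gene PTPRC did not pass 0.09. The leukocyte marker that passed, the macrophage and lysosome gene CD68, was higher after IFN-β in every line, at 1.66 and 2.5 FPKM in KYSE30, 8.71 and 15.8 in KYSE180 and 0.61 and 5.1 in KYSE450 (limma, adjusted p = 0.378 on scaled values and 0.00379 as deposited), and its part in the results was not tested. These are bulk libraries, in which fewer cells making an RNA and less of that RNA per cell cannot be told apart.

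The genes lie on 7 chromosomes (GENCODE release 29, GRCh38). The nuclease genes are ISG20 at chr15:88636153-88656483 on the plus strand, PNPT1 at chr2:55634265-55693910 on the minus strand and XRN1 at chr3:142306607-142448062 on the minus strand. ZC3HAV1 lies at chr7:139043520-139109719 (minus) and C19orf66 at chr19:10086122-10093252 (plus). The helicase genes are all on the minus strand, ZNFX1 at chr20:49237946-49278426, HELZ2 at chr20:63558086-63574239, DDX60 at chr4:168216293-168318807 and DDX60L at chr4:168356735-168537786. Their promoters differ in the repeat that interferon signalling is known to use. RefSeq promoter sequences (GRCh38.p14) matched 8 of the 9 genes, and the 250 bases before the start were searched on both strands for 2 copies of GAAA with any 2 bases between them (2 copies of TTTC on the other strand), the core of the interferon-stimulated response element. ISG20, C19orf66, DDX60 and DDX60L hold it, the last pair with 2 matches each. The shorter form with 1 base between the copies, GAAANGAAA, was added after the sequences were seen. It occurs in PNPT1, and in DDX60 and DDX60L where it overlaps the longer form. The matches are shown with their flanking bases, beside XRN1, which holds neither form. XRN1 is not alone in this, since ZC3HAV1 and HELZ2, both higher after IFN-β in every line, hold neither form either. The capitals mark the matched repeat, with overlapping matches joined.
ISG20, chr15:88638937-88638966, plus strand: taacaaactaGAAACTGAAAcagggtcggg
C19orf66, chr19:10086264-10086293, plus strand: cccctgaatcGAAAGCGAAAcaggggccgg
DDX60, upstream copy, chr4:168318821-168318850, minus strand: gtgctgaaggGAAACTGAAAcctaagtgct
DDX60, downstream copy, chr4:168318788-168318817, minus strand: gagaggaGAAAGGAAACCGAAActcccgcc
DDX60L, upstream copy, chr4:168480553-168480582, minus strand: gaaaactgcgGAAATCGAAAaggcctcgcg
DDX60L, downstream copy, chr4:168480525-168480554, minus strand: cggtggaGAAAAGAAACCGAAActaactcc
PNPT1, shorter form, chr2:55693890-55693919, minus strand: gggcaccgcgGAAACGAAActccatcaggc
XRN1, neither form, chr3:142448063-142448162, minus strand: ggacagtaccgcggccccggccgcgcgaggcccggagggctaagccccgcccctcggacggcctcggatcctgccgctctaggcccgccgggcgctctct

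The last base of the repeat lies 60 bases before the RefSeq start in ISG20, 34 in C19orf66, 79 and 44 in DDX60, and 71 and 41 in DDX60L. The RefSeq start is not the edge of the GENCODE span given above. By that span the repeats of ISG20, C19orf66, PNPT1 and DDX60L lie inside the gene, as does GAAACCGAAA in DDX60. The XRN1 window was instead cut just before its GENCODE span, 125 to 26 bases before its RefSeq start. DDX60 and its relative DDX60L are neighbours on the minus strand of chromosome 4, 37927 bases apart, and in each the copy nearer the start reads GAAACCGAAA. The promoters of ZC3HAV1 and HELZ2 hold neither form in this window. The gamma-activated site TTCNNNGAA, which reads the same on both strands in this form, occurs once each in PNPT1, ZC3HAV1 and DDX60. The longer form occurs in 3.02% of all 35116 promoters in the table, GAAANGAAA in 2.69% and TTCNNNGAA in 6.57%. A match describes the letters of the window and is not a measured binding site.

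After IFN-β, ISG20 and PNPT1 rose by the test, by log2 fold changes of 2.44 and 1.66, and 6 of the other 7 genes had higher values in every line without passing it. XRN1 was the exception, being higher in KYSE30 and KYSE450 and lower in KYSE180. The 2 called genes of 9 compare with 0.402% of all 12428 genes tested that were called higher, and none was called lower (limma on scaled log2 values, Benjamini-Hochberg adjusted p of 0.05, 1219 genes with an unadjusted p under it). By size alone, ISG20, PNPT1, HELZ2, DDX60 and DDX60L were at least 2-fold higher in all 3 lines, 5 of 9 against 0.676% of genes tested. A higher value in every line was found for 8 of 9 and for 16.8% of genes tested. For 7 of 9, all but PNPT1 and XRN1, each scaled treated value lay above each scaled untreated one (1.88% of genes tested). None of the 9 was at least 2-fold lower in every line (0.00805% of genes tested) or had all treated values below all untreated ones (1.16%). On the values as deposited 8 of 9 were called higher, against 1.55% of genes tested. With TMM scaling 2 of 9 were called, and 50 genes in all, as in the main fit. The number of calls among these genes thus differs between scaled and deposited values. The fitted spread differed too: for HELZ2 the log2 fold change was 3.14 ± 0.42 (SE) scaled and 3.23 ± 0.26 as deposited. As deposited the SE was 0.22 to 0.29 for all of the 9 but DDX60L (0.44), against 0.17 to 0.59 scaled. SEs that alike rest largely on the spread shared over genes, so the 8 calls say little of each gene's own spread between lines.

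**Figure D1:**
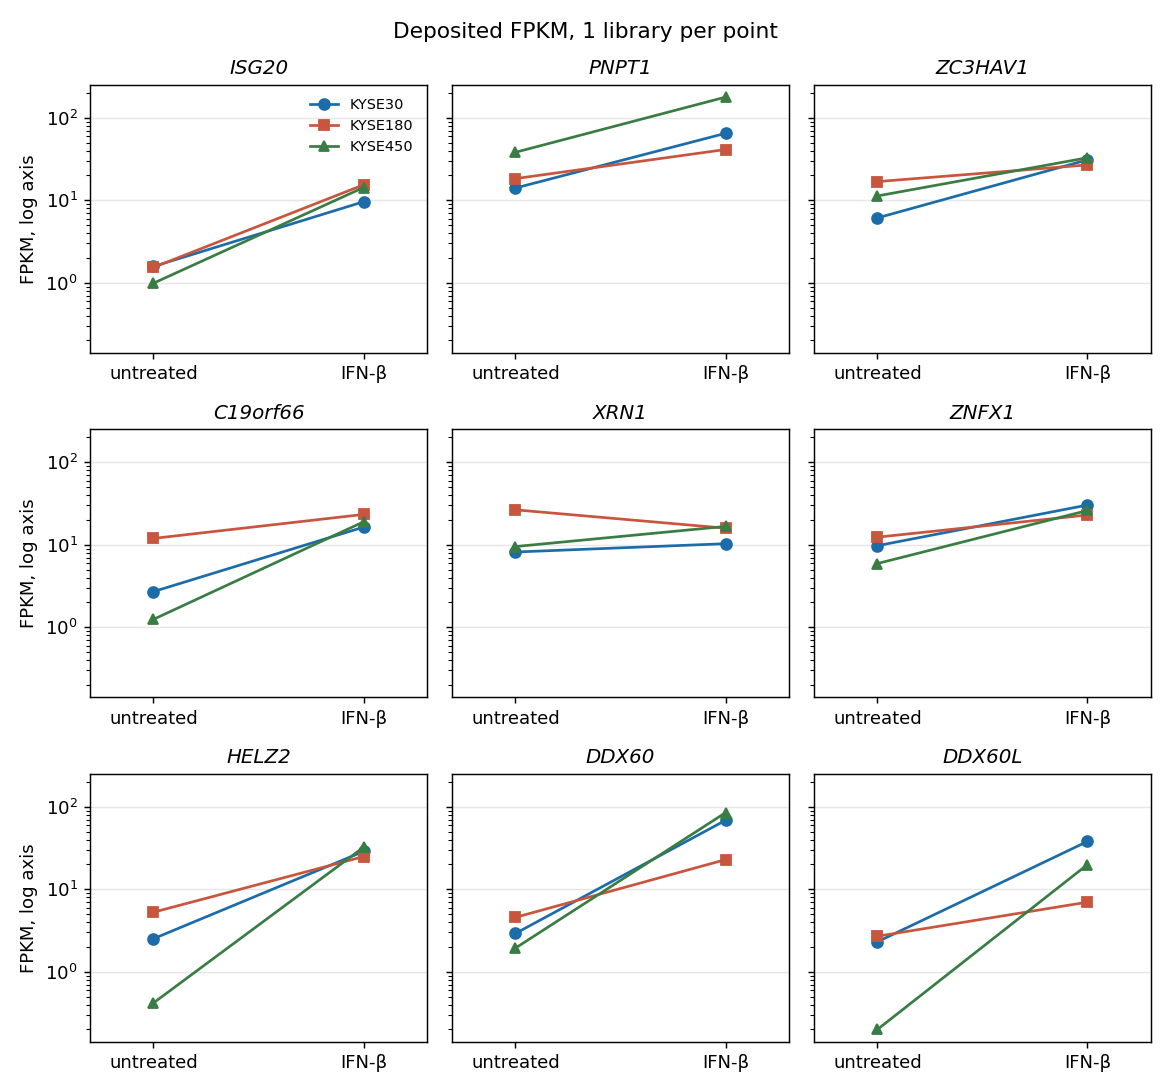
Deposited FPKM (log axis) of the 9 genes in untreated and IFN-β-treated cells, 1 panel per gene and 1 point per library, with a line joining the pair of each cell line. In 8 panels every line slopes upward, and in KYSE30 and KYSE450 the steepest slopes are those of DDX60, HELZ2 and DDX60L, in KYSE180 that of ISG20, while in XRN1 the KYSE180 pair slopes downward from 26.6 to 15.9 FPKM.

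Among the nucleases, ISG20 was at 1.58 FPKM in untreated KYSE30 cells, 1.54 in KYSE180 and 0.99 in KYSE450, and with IFN-β at 9.61, 15.4 and 14.3 in the same order. All 3 treated libraries lay well above all 3 untreated ones, and the untreated levels were close to each other. Its log2 fold change was 2.44 ± 0.17 (SE, n = 3 lines, limma, adjusted p = 0.00402), with 2.06, 2.66 and 2.60 in KYSE30, KYSE180 and KYSE450. On this scale, with 1 FPKM added, ISG20 had the smallest range between lines of the 8 higher genes, 0.60 log2 units. It was also the only one with its largest value in KYSE180. Both depend on the added 1 FPKM, since its untreated levels were near 1. The deposited FPKM ratios were 6.08, 10.0 and 14.4 in KYSE30, KYSE180 and KYSE450, largest in KYSE450. PNPT1 stood at 14.1, 18.3 and 38.2 FPKM without IFN-β (KYSE30, KYSE180, KYSE450) and at 64.9, 41.3 and 178 with it. It was already the most abundant of the 9 in untreated KYSE450 and KYSE30 cells, and on scaled values the treated KYSE180 library stayed below the untreated KYSE450 one. The log2 fold change was 1.66 ± 0.19 (SE, n = 3 lines, limma, adjusted p = 0.0435).

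The call for PNPT1 was lost without KYSE450 (limma, adjusted p = 0.283), with a pseudocount of 0.1 (0.0541), without the trend option (0.0591), with no filter (0.324) and without the line as a block (1). ISG20 lost its call with no filter (0.0688) and without the block (0.0640), and kept it without any one of the lines.

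XRN1, the constitutive exonuclease, gave no call in any fit. The untreated levels were 8.18, 26.6 and 9.53 FPKM (KYSE30, KYSE180, KYSE450) and the treated ones 10.3, 15.9 and 16.7. The untreated and treated groups overlapped, and the highest of the 6 libraries was untreated KYSE180. The log2 fold change was −0.03 ± 0.22 (SE, n = 3 lines, limma, adjusted p = 0.970), with 0.31, −0.68 and 0.29 in KYSE30, KYSE180 and KYSE450. On the deposited values the estimate was 0.12 and without KYSE180 it was 0.30, so its sign is not settled by these libraries.

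The RNA-binding factors were higher in every line but did not pass the test. ZC3HAV1 stood at 6.12 and 31.0 FPKM in KYSE30, at 16.9 and 26.9 in KYSE180 and at 11.3 and 32.8 in KYSE450, each pair given as untreated and then IFN-β. The treated levels came within a narrow band although the untreated ones did not, and the log2 fold change was 1.28 ± 0.30 (SE, n = 3 lines, limma, adjusted p = 0.356). In KYSE180 the log2 ratio of ZC3HAV1, 0.66, lay within the range that 95% of tested genes had in that line, −0.98 to 0.90. C19orf66 stood at 2.71 and 16.4 FPKM in KYSE30, at 11.96 and 23.4 in KYSE180 and at 1.25 and 19 in KYSE450. KYSE180 began highest, and no treated library was below an untreated one. The log2 fold change was 1.99 ± 0.36 (SE, n = 3 lines, limma, adjusted p = 0.207). C19orf66 is overlapped on the other strand by ANGPTL6 and by an antisense gene, and 34.6% of the 50-base windows of its longest transcript also occur in them. ANGPTL6 was listed at 0.12 FPKM or less in all 6 libraries. The sources used here do not say if counting used the strand.

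Among the helicases, ZNFX1 came closest to the threshold. Its untreated levels of 9.76, 12.4 and 5.93 FPKM (KYSE30, KYSE180, KYSE450) compared with 30.4, 23.0 and 26.1 after IFN-β, a log2 fold change of 1.31 ± 0.17 (SE, n = 3 lines, limma, adjusted p = 0.0516). The groups did not overlap, and ZNFX1 was called when named genes alone were tested (0.0153). In KYSE180 its log2 ratio of 0.86 lay within the range that 95% of tested genes had in that line, −0.98 to 0.90. DDX27, which overlaps it on the other strand, had 36.1 and 32.6 FPKM in KYSE30, 32.1 and 40.1 in KYSE180 and 31.4 and 50.1 in KYSE450, a smaller ratio than that of ZNFX1 in each line.

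DDX60, HELZ2 and DDX60L had the 3 highest estimates of the 9 and also the widest spread between lines. DDX60 was at 2.92 and 68.6 FPKM in KYSE30, at 4.57 and 22.9 in KYSE180 and at 1.94 and 84.9 in KYSE450. The groups did not overlap, but the KYSE180 treated library was the lowest of the treated ones, and the log2 fold change was 3.58 ± 0.50 (SE, n = 3 lines, limma, adjusted p = 0.148). HELZ2 was at 2.52 and 28.8 FPKM in KYSE30, at 5.28 and 24.9 in KYSE180 and at 0.42 and 32.3 in KYSE450. Its treated levels were alike in all lines while its untreated levels were not, and the log2 fold change was 3.14 ± 0.42 (SE, n = 3 lines, limma, adjusted p = 0.103). DDX60L was at 2.31 and 38.1 FPKM in KYSE30, at 2.70 and 6.99 in KYSE180 and at 0.20 and 19.9 in KYSE450. It had the largest range between lines, 2.76 log2 units, with a log2 fold change of 2.85 ± 0.59 (SE, n = 3 lines, limma, adjusted p = 0.341). Fold changes on the log2(FPKM + 1) scale understate the change from starting levels as low as those of HELZ2 and DDX60L in KYSE450. DDX60 and DDX60L share 42 windows of 50 bases, 0.697% and 0.624% of their longest transcripts. DDX60L is overlapped on the other strand by PALLD. PALLD had 7.15 and 7.09 FPKM in KYSE30, 26.8 and 14.0 in KYSE180 and 9.84 and 15.9 in KYSE450. Its part in the DDX60L values was not tested.

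**Figure D2:**
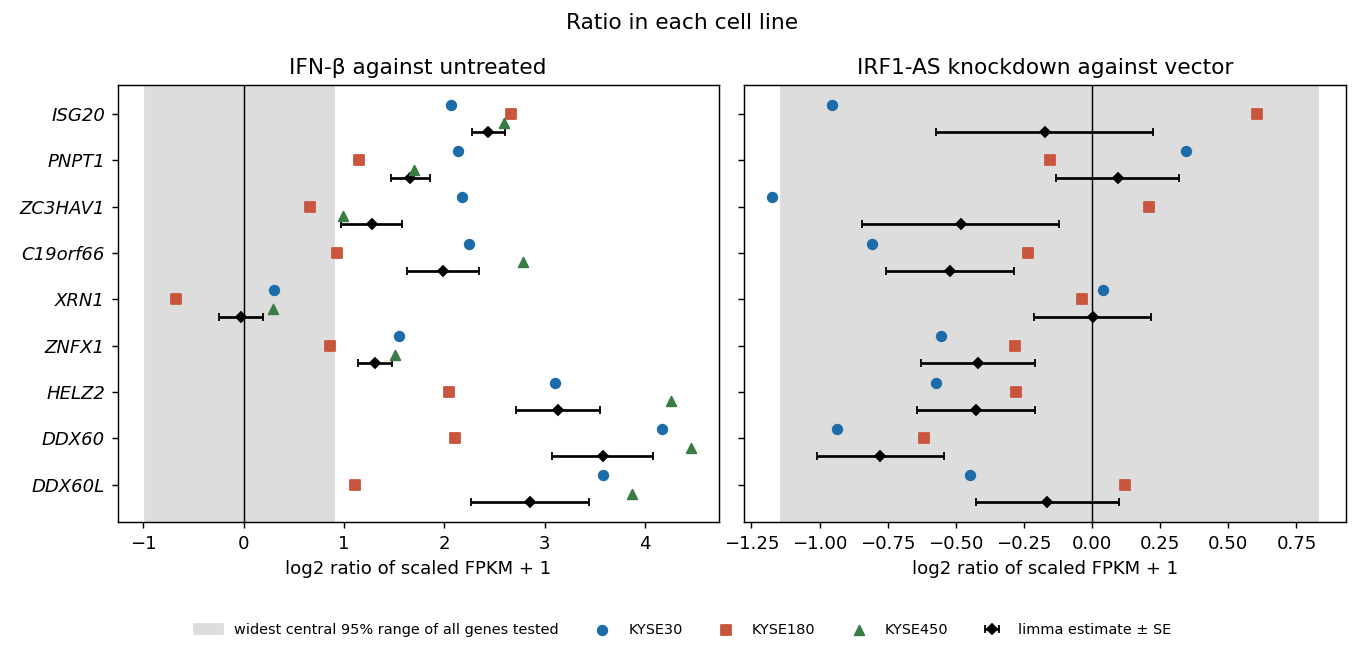
Log2 ratio of scaled FPKM + 1 in each cell line for IFN-β against untreated (left) and IRF1-AS knockdown against vector (right), with the limma estimate ± SE as a diamond; the grey band is the widest of the lines' central 95% ranges over all genes tested. On the left 8 genes lie to the right of 0 in every line and KYSE180 is lowest in 8 of 9, while on the right all estimates are between −0.78 and 0.09.

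KYSE180 gave the lowest log2 ratio of the 3 lines for 8 of the 9 genes, ISG20 being the exception. Over all genes tested KYSE180 was lowest for 36.8%, and among the 84 genes at least 2-fold higher in every line it was lowest for 65.5%. The median ratio of the 9 genes was 2.18 log2 units in KYSE30, 1.11 in KYSE180 and 2.60 in KYSE450. Without KYSE180, 7 of 9 genes were called higher by limma, namely all but ZC3HAV1 and XRN1 (0.608% of genes tested in that fit). Without KYSE450 only ISG20 was (0.25%). Each line has 1 library per arm, so a difference between lines has no test. Ranked by log2 ratio among the 12428 genes tested, DDX60 was at position 22 in KYSE30, 61 in KYSE180 and 19 in KYSE450, and HELZ2 at 44, 64 and 23. ISG20 was at 88, 34 and 59, and XRN1 at 975, 11575 and 2246.

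Across the 6 libraries, each gene was compared with the mean standardized level of the other 8. Pearson's r was 0.96 for HELZ2, 0.95 for DDX60, 0.93 for ZNFX1 and between 0.87 and 0.90 for ISG20, ZC3HAV1, C19orf66 and DDX60L, but 0.64 for PNPT1 and 0.09 for XRN1. PNPT1 differs in that its untreated level was highest in KYSE450, where ISG20, C19orf66, ZNFX1, HELZ2, DDX60 and DDX60L, 6 of the other 8, had their lowest level of all 6 libraries. Of 8918 other named genes at an average of 5 FPKM or more, the 5 most like the mean of the 9 were OAS3 (r = 0.99), PARP12 (0.99), PARP14 (0.98), DTX3L (0.98) and IFI6 (0.98). These r values describe 6 libraries that share the treatment contrast and carry no test.

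The wider RNA decay machinery was examined next, since the 9 genes work beside it. In 5 lists of general factors no gene was called by limma in either direction, scaled or as deposited, and the median log2 fold changes were between −0.07 and 0.12, against −0.01 over all genes tested. In nonsense-mediated decay 5 of 10 genes were higher in every line and none was lower in every line (16.8% and 19% of all genes tested). These lists held 15 tested genes of decapping and decay from the 5′ end (median −0.04), 18 of deadenylation (0.07), 18 of the exosome and SKI complex (−0.07), 10 of nonsense-mediated decay (0.12) and 10 of mitochondrial RNA turnover (0.00075). The smallest p among the decapping genes belonged to DCP1A (log2 fold change 0.56, limma, adjusted p = 0.388) and PATL1 (0.41, 0.458), which act in decapping with the enzyme that feeds XRN1. Values for the other lists were PAN2 (−0.30) and CNOT6L (0.31) for deadenylation, EXOSC9 (0.35) and HBS1L (−0.23) for the exosome, SMG5 (0.29) for nonsense-mediated decay, and PDE12 (0.26) and FASTKD1 (−0.25) for mitochondrial RNA. SUPV3L1, the helicase partner of PNPT1, was at 16.7 and 16.1 FPKM in KYSE30, at 18.6 and 21.1 in KYSE180 and at 23.5 and 36.1 in KYSE450, and its estimate was 0.09 log2 units.

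**Figure D3:**
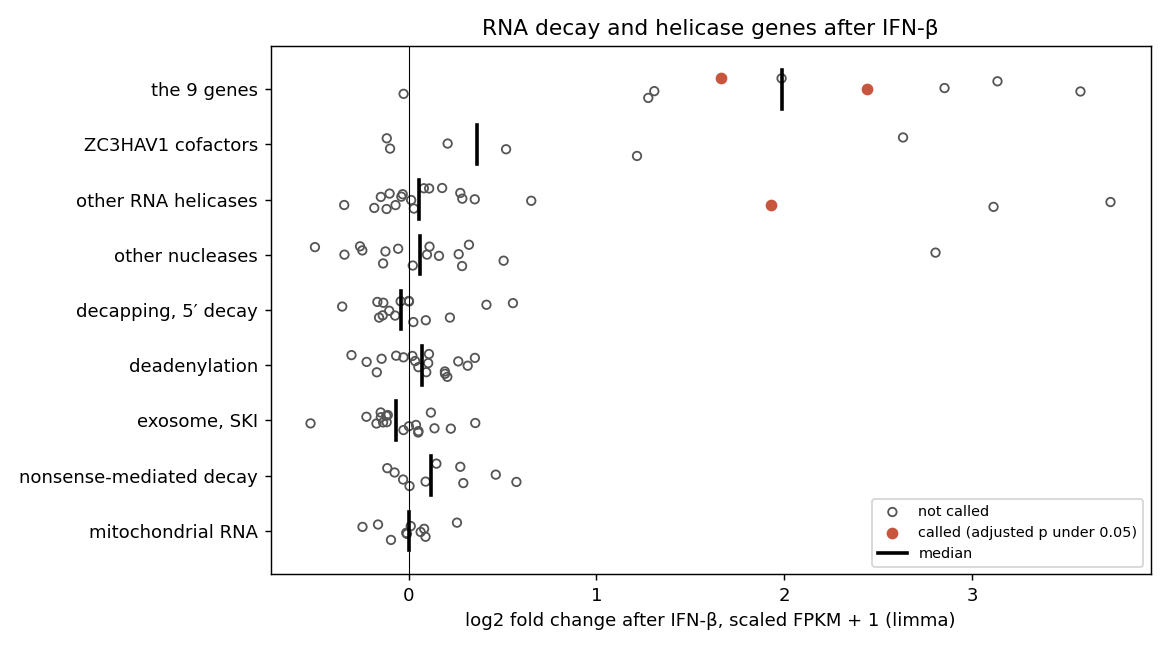
Log2 fold change after IFN-β (limma, scaled FPKM + 1) of every tested gene in the 9-gene set and 8 lists of related genes, with filled points for calls at an adjusted p of 0.05 and a bar at each list's median. The median of the 9 genes is 1.99, and the medians of the 5 general decay lists lie between −0.07 and 0.12.

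Relatives and cofactors of the 9 genes gave a mixed picture. Of 20 other RNA helicases 2 were called higher as deposited and 1 on scaled values by limma, DHX58, a regulator of cytosolic RNA sensing, with a log2 fold change of 1.93 ± 0.22 (SE, n = 3 lines, adjusted p = 0.0383), and the list's median was 0.05. The sensor gene IFIH1 had 3.12 ± 0.54 (limma, n = 3 lines, adjusted p = 0.240). Of 16 other nucleases none was called on scaled values, SAMHD1 alone was called higher as deposited, and the median was 0.06, with SAMHD1, which breaks down deoxynucleotides, at 2.81 ± 0.42 (limma, n = 3 lines, adjusted p = 0.148) and TREX1 at 0.51 (0.449). ISG20L2, a relative of ISG20, was at 15.9 and 16.8 FPKM in KYSE30, at 11.1 and 15.1 in KYSE180 and at 13.6 and 26.9 in KYSE450, and was not called (log2 fold change 0.32, adjusted p = 0.507). Of 6 cofactors and relatives of ZC3HAV1 none was called on scaled values and 2, PARP12 and TRIM25, were called higher as deposited. The list's median was 0.36, with PARP12 at 2.63 (limma, adjusted p = 0.105) and N4BP1 at 0.52 (0.348). TRIM25, a ubiquitin ligase that ZC3HAV1 needs for its activity, had 1.22 (0.354) and is named because of that role after its value was seen.

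The interferon response itself served as a check of the treatment. Of 8 transducers and standard response genes 5 were called higher by limma on scaled values, with a median of 2.97, among them ISG15 (5.60, adjusted p = 0.000104) and IFI6 (7.41, 0.00402). In the promoters, GAAA repeated with 2 bases between occurred in 3.22% of the 9288 tested genes with a promoter entry and in 50% of the 34 called genes with one, ISG20 among them. Of the 299 tested genes with this form, 17 were called. Their median log2 fold change was 0.056, against −0.014 for the 8989 without it, so most genes with a match did not respond. Within the 9 genes the form occurred in 1 called gene (ISG20) and 3 that were not called.

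The second comparison asks how the genes stood after knockdown of IRF1-AS. The antisense gene, taken here by the symbol C5orf56, had 6.86 FPKM in KYSE30 cells with the vector and 3.04 after knockdown. In KYSE180 it had 1.08 and 0.948, so the KYSE180 libraries do not show the knockdown at this level. No gene was called in either direction, and so none of the 9 (0% of 12813 genes tested, limma, 845 genes with an unadjusted p under 0.05, smallest adjusted p 0.142). C19orf66, ZNFX1, HELZ2 and DDX60 had lower values in both lines, 4 of 9 against 27.8% of genes tested. HELZ2 alone had both knockdown libraries below both vector controls, 1 of 9 against 8.75% of genes tested. None of the 9 was lower by 2-fold in both lines, against 0.367% of genes tested, none was higher in both lines (24.6%), and none had both knockdown values above both vector values (8.72%).

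**Figure D4:**
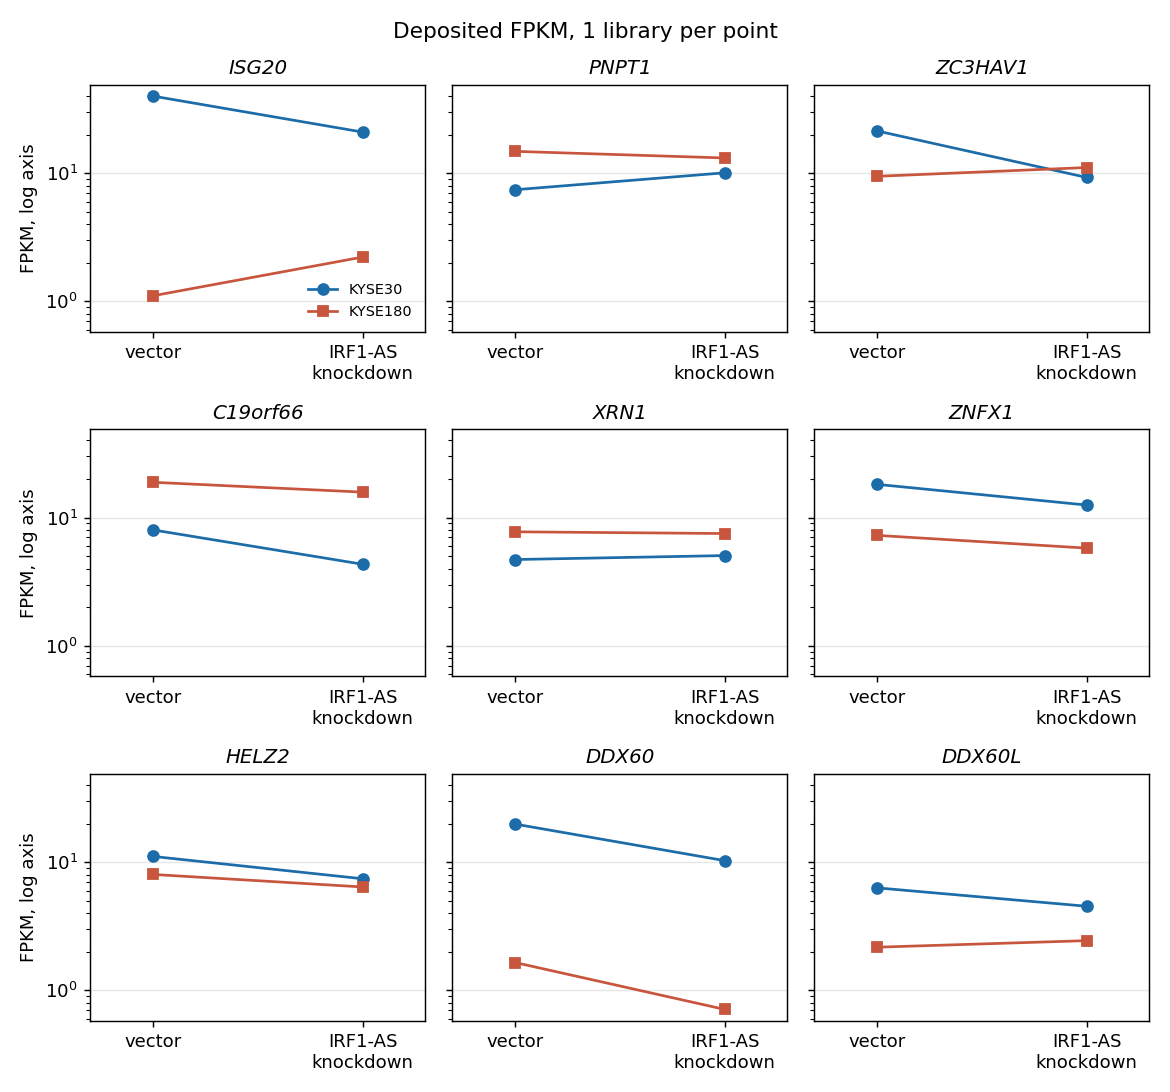
Deposited FPKM (log axis) of the 9 genes in vector control and IRF1-AS knockdown cells, 1 panel per gene and 1 point per library, with a line joining the pair of each cell line. In KYSE30 7 genes are lower after knockdown, ZC3HAV1 the most by ratio (21.3 to 9.26 FPKM). In KYSE180 DDX60 shows the largest drop by ratio, at levels near 1 FPKM (1.65 to 0.710 FPKM).

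Among the helicases, DDX60 had the smallest unadjusted p of the 9. It went from 19.8 to 10.3 FPKM in KYSE30 and from 1.65 to 0.710 in KYSE180, with a log2 fold change of −0.78 ± 0.23 (SE, n = 2 lines, limma, adjusted p = 0.738). Both KYSE180 values of DDX60 lay near 1 FPKM, the level that the filter uses. HELZ2 had vector levels of 11.1 and 8.01 FPKM (KYSE30, KYSE180) and knockdown levels of 7.42 and 6.40 (−0.43 ± 0.22, limma, n = 2 lines, adjusted p = 0.800), and ZNFX1 18.2 and 7.27 against 12.5 and 5.78 (−0.42 ± 0.21, limma, n = 2 lines, adjusted p = 0.800). The differences in the KYSE180 pairs of HELZ2 and ZNFX1 were about 0.28 log2 units, well within the range that 95% of tested genes had in that line, −0.99 to 0.82. DDX60, at −0.62, was within that range too. In KYSE30 it had −0.94, within the range of −1.14 to 0.83 there. DDX60L had 6.30 and 4.53 FPKM within the KYSE30 pair, and stood at 2.17 and 2.44 within that of KYSE180, so the lines moved in opposite directions. The overlapping gene PALLD moved the same way in each line, with 11.3 and 6.80 FPKM in KYSE30 and 25.5 and 34.8 in KYSE180. Its part in the DDX60L values was not tested.

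Of the RNA-binding factors and nucleases, C19orf66 was lower in both lines and the other 4 moved in opposite directions in KYSE30 and KYSE180. C19orf66 had 8.01 and 18.9 FPKM with the vector (KYSE30, KYSE180) and 4.33 and 15.8 after knockdown, with a log2 fold change of −0.52 ± 0.24 (SE, n = 2 lines, limma, adjusted p = 0.782). Its log2 ratios, −0.81 in KYSE30 and −0.24 in KYSE180, lay within the range that 95% of tested genes had in each line. For ZC3HAV1 the KYSE30 pair read 21.3 and 9.26 FPKM, and the KYSE180 pair 9.44 and 11.1. Its log2 ratio of −1.18 in KYSE30 lay just below the range that 95% of tested genes had there, −1.14 to 0.83. In KYSE180 its 0.21 lay within the range. ISG20 was at 39.9 and 20.9 FPKM in KYSE30 but at 1.11 and 2.21 in KYSE180, so it was lower after knockdown where it was abundant and higher where it was near 1 FPKM. PNPT1 went the other way, with 7.42 and 10.1 FPKM in KYSE30 and 14.8 and 13.1 in KYSE180. XRN1 had the most similar pairs, at 4.71 and 5.06 FPKM in KYSE30 and 7.75 and 7.52 in KYSE180 (log2 fold change 0.0019 ± 0.21, n = 2 lines, limma, adjusted p = 0.999).

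The interferon response genes moved in the same libraries. Of the 8 transducers and response genes 7 were lower in both lines after knockdown, none was called, and their summed level was 177 to 1304 FPKM in the vector controls and 105 to 487 after knockdown. ISG15 went from 1073 to 346 FPKM in KYSE30 and from 32.6 to 23.7 in KYSE180, IFIT1 from 116 to 58.5 and from 14.9 to 4.70, and IRF1 from 31.1 to 5.88 and from 1.83 to 1.20. Their part in the values of the 9 genes was not tested.

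The KYSE30 vector control differed from the KYSE180 one in several of these genes, in a way that the untreated libraries of the first experiment did not. ISG20 was 36.1-fold higher in KYSE30 than in KYSE180 among vector controls and 1.03-fold among untreated libraries. For DDX60 the ratios were 12.02 and 0.639, for ZNFX1 2.5 and 0.788, for ZC3HAV1 2.26 and 0.363, and for DDX60L 2.90 and 0.856. For HELZ2 they were 1.38 and 0.477. C19orf66, PNPT1 and XRN1 were lower in KYSE30 than in KYSE180 in both. By this ratio ISG20 was at position 37 and DDX60 at 145 of 12813 genes in the vector controls, where 10.99% of genes were at least 2-fold higher in KYSE30, and at 4861 and 8247 of 12428 in the untreated libraries, where 8.74% were. ISG15 showed 32.9 and 3.20 and IRF1 17.0 and 2.18 in the same pairs. The experiments were normalized separately, each ratio is within 1 table, and each is of 1 library to 1 library, with no test.

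**Figure D5:**
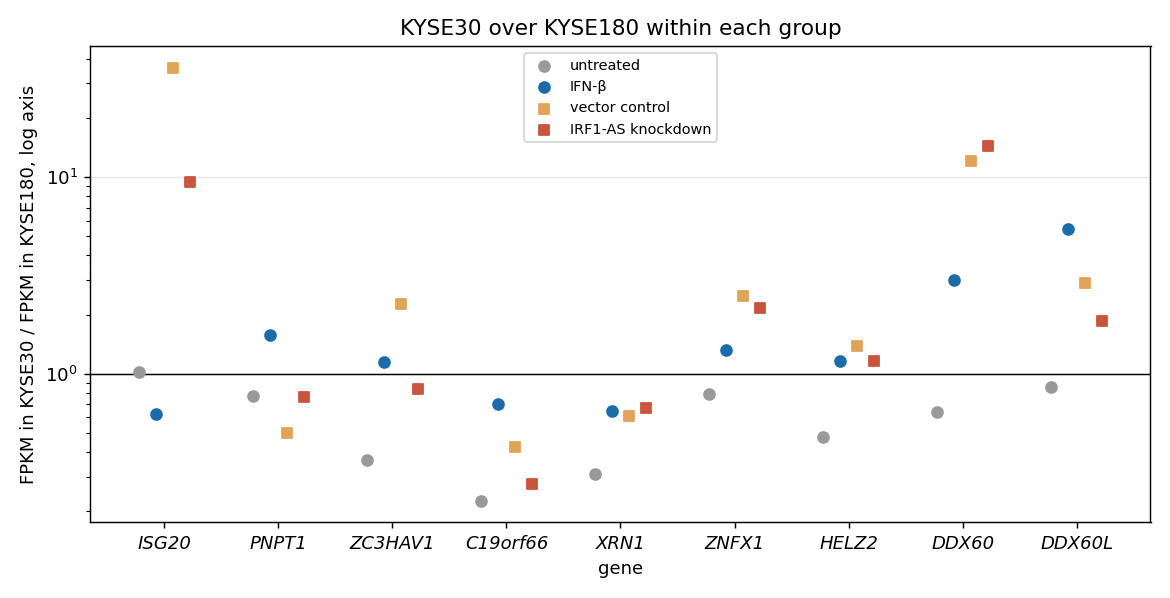
FPKM in KYSE30 divided by FPKM in KYSE180 (log axis) for the 9 genes, within the untreated, IFN-β, vector control and IRF1-AS knockdown groups, each point a ratio of 1 library to 1 library. In the vector controls ISG20 (36.1) and DDX60 (12.02) stand far above 1, while in the untreated group all 9 ratios are between 0.227 and 1.03.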

How the data were processed

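RNA sequencing was done on 10 libraries of 3 esophageal cancer cell lines. The values are FPKM, per the file headers, deposited by the authors in 1 table per library, and TopHat, HTSeq and hg38 appear in the submitters' processing notes without versions or roles. The tables of the first experiment stack 20502 rows of named genes (20501 distinct names, since 1 name has 2 rows, which were summed) and 28032 long non-coding transcripts, which were summed to 16044 genes. For the knockdown, 946 copies on alternate haplotypes were added to their primary gene. A gene was tested at 1 FPKM or more in at least 3 libraries (IFN-β) or 2 (knockdown). Scaling used the median of ratios. Values on the log2(FPKM + 1) scale went into limma 3.58.1 under R 4.3.3, with its trend and robust settings, each experiment apart, with the cell line as a block. A gene had 2 residual degrees of freedom in the IFN-β fit and 1 in the knockdown fit. The spread shared over genes added a median of 4.19 and 4.24 degrees of freedom. The design was written for FPKM or counts, and no count test was used. Lines pair the libraries: across genes, the scaled deviations of a line's pair from the group means had correlations of 0.91, 0.841 and 0.876 in the IFN-β experiment (KYSE30, KYSE180, KYSE450) and 0.842 in the knockdown. Fits were tested on simulated data. Positions come from GENCODE release 29 (GRCh38), older symbols from RefSeq, and promoters from RefSeq (GRCh38.p14).

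The 9 genes, the lists of related genes and the tests were chosen with earlier results of these data known. All 9 genes are named, and from each list up to 3 called genes by smallest p, or, where fewer than 2 were called, the 2 with the smallest p. Overlapping genes, IRF1, TRIM25, SUPV3L1, ISG20L2 and the markers were named for their role after their values were seen. Results of some list genes are not reported here. The genes most like the 9 were ranked by Pearson's r over 6 libraries. Alternatives were the deposited scaling, TMM factors used as a scaling, other pseudocounts and filters, limma's options, the block, named genes alone, and each line left out.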

Additional observations from a re-analysis of the deposited data

Results flagged for a closer look

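Genes are given here because their scaled log2 ratios had opposite signs in different lines. Each line has 1 library per arm, so these differences were not tested. After IFN-β this held for XRN1, whose ratios were 0.31 (KYSE30), −0.68 (KYSE180) and 0.29 (KYSE450), a gap of 0.98 between the highest and lowest line. After IRF1-AS knockdown it held for 5 genes. ISG20 had −0.95 in KYSE30 and 0.61 in KYSE180, a gap of 1.56. ZC3HAV1 had −1.18 and 0.21, a gap of 1.39. DDX60L had −0.45 and 0.12, a gap of 0.57. PNPT1 had 0.34 and −0.16, a gap of 0.50. XRN1 had 0.04 and −0.04, a gap of 0.07, which is too small to be read as a difference. The antisense gene itself was lower mainly in KYSE30 (log2 ratio −1.01, against −0.09 in KYSE180), and its part in these gaps was not tested.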

How the results depend on the processing

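After IFN-β 50 genes were called by limma, 2 of them among the 9. Of the same 12428 genes, the counts were 237 and 8 as deposited, 50 and 2 with TMM scaling and 13 and 0 with no replicate block. They were 65 and 4 without the robust option, 41 and 1 without the trend option and 35 and 1 with a pseudocount of 0.1. With no filter they were 13 and 0 (23647 genes tested), and with named genes alone 77 and 3 (11622 tested). Leaving out a line gave 33 to 82 genes and 1 to 7 of the 9. The counts were 33 and 1 without KYSE450 (13201 tested) and 82 and 7 without KYSE180 (12825 tested). Leaving out a line or changing the filter alters the libraries or genes tested by construction. The cause of the other moves, that of the scaling included, was not tested. All 50 genes were among the 237. Of the 9 genes, 8 kept their sign in every alternative run for IFN-β. XRN1 was 0.12 as deposited and ran from −0.20 to 0.30 with a line left out. After knockdown no alternative with a test called a gene, the pairing by line included, and XRN1 was −0.015 among genes at an average of 5 FPKM or more, a filter that DDX60L did not pass. Leaving out a knockdown line leaves 1 pair, a value with no test. FPKM without counts give no interval for a single library.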

Other observations

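After knockdown of IRF1-AS the general RNA decay lists held no called gene (limma, adjusted over all genes tested). In the exosome and SKI list 11 of 17 tested genes were higher in both lines and none was lower in both, against 24.6% and 27.8% of all genes tested. Its median log2 fold change was 0.19, against −0.01 over all genes tested, and EXOSC5 (0.49) and EXOSC2 (0.43), subunits of the exosome ring and cap, had its smallest p (limma, adjusted p = 0.759 and 0.782). In nonsense-mediated decay 6 of 10 were higher in both lines, with a median of 0.21, SMG9 at 0.56 and UPF3A at 0.48. In the mitochondrial list 5 of 10 were, with a median of 0.17, FASTKD2 at 0.44 and GRSF1 at 0.37. The medians of decapping and deadenylation were 0.07 and 0.03, with LSM7, a subunit of the ring that assists decapping, at 0.94 (68.7 to 137 FPKM in KYSE30 and 101.5 to 198 in KYSE180, limma, adjusted p = 0.652) and LSM6 at 0.38. The deadenylation cofactor gene BTG2 had −0.61 and CNOT3 0.37.

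Other values after knockdown follow. The helicases IFIH1 and DHX58 had −0.76 and −0.82, both lower in each line, within a list median of 0.07. The nucleases REXO1 and ISG20L2 had 0.55 and 0.47 (list median 0.11), and the ZC3HAV1 cofactor gene KHNYN and the relative ZC3HAV1L had −0.40 and 0.48 (list median −0.09).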
